A study of Mus musculus with 34 samples.

Results

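Endothelial genes of the liver were followed through mouse liver RNA-seq libraries from 8 diet by genotype groups. The list held 5 sinusoidal genes, Stab2, Clec4g, Lyve1, Oit3 and Fcgr2b, and 5 vascular genes, Vwf, Selp, Ly6c1, Plvap and Vcam1, taken as a list of symbols. The list was drawn up with earlier results of these data known, so its counts describe these genes and are not independent evidence. Of these 10 genes, 9 were among the 14436 genes measured in the livers of WT and Bcl2TG mice and 10 were among the 13817 measured in the livers of S100a8f/f and S100a8f/fCx3cr1Cre mice. Ly6c1 was measured only in the second experiment. The experiments together measured 14876 genes in 34 libraries.

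All mice were males, placed on diet at 8 weeks of age. High-fat diet (HFD) supplied 60% of its calories as fat and the control diet, named chow, supplied 10%. In the first experiment, 3 Chow WT, 3 Chow Bcl2TG, 5 HFD WT and 5 HFD Bcl2TG livers were taken after 3 months of diet. Bcl2TG mice carry a Cre-inducible transgene for the survival protein BCL2, switched on by Adipoq-Cre and therefore in adipocytes, and the WT mice were their littermates. In the second experiment, 4 Chow S100a8f/f, 5 Chow S100a8f/fCx3cr1Cre, 5 HFD S100a8f/f and 4 HFD S100a8f/fCx3cr1Cre livers were taken. The length of their diet is given as 3 months or as 4 months in different places. In S100a8f/fCx3cr1Cre mice the alarmin gene S100a8 is deleted by a Cre under the Cx3cr1 promoter, which acts in macrophages and leaves S100A8 in neutrophils, and S100a8f/f littermates carry the same floxed alleles without the Cre. Each mouse gave 1 library of whole liver, so neither modified cell type is measured on its own.

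The liver sinusoids are lined by a specialised endothelium with open pores and no continuous basement membrane, which clears hyaluronan, collagen fragments and small immune complexes from the blood through scavenger and lectin receptors. The portal vein, hepatic artery and central veins are lined by a continuous endothelium that carries platelet and leukocyte adhesion molecules. In injured or fatty liver the sinusoidal lining is known to lose pores and to take on features of continuous vessels, a process called capillarization. In whole-liver RNA, fewer cells of a type and less RNA per cell cannot be told apart.

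Promoter windows are shown for a sinusoidal gene that rose on HFD (Stab2), a sinusoidal gene that passed in no comparison (Clec4g) and the vascular genes with the largest genotype fold changes on HFD (Selp and Ly6c1). Each window runs from 250 bases before to 50 bases after a start site in RefSeq (GRCm38.p6) and is printed 5′ to 3′ on the strand of the gene. Capitals mark AGGAAG or its reverse complement CTTCCT, the core with flanks bound by ETS factors, a family that includes the endothelial regulators ERG and FLI1. The window of Stab2, the sinusoidal hyaluronan scavenger receptor, lies at chr10:87007893-87008192 on the minus strand.
Stab2: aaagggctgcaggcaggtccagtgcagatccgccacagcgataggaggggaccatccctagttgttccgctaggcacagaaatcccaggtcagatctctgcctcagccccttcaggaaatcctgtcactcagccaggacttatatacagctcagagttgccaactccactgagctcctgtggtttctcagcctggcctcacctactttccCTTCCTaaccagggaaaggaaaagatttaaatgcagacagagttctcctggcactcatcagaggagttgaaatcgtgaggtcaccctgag
Clec4g, a sinusoidal C-type lectin, has its window at chr8:3720602-3720901 on the minus strand.
Clec4g: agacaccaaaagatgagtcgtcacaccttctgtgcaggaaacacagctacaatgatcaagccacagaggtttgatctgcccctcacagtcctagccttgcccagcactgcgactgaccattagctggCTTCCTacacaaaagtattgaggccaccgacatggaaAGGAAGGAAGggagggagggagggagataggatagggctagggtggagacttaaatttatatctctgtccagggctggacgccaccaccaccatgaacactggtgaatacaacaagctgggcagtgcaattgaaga
The window of Selp, which encodes P-selectin, lies at chr1:164115014-164115313 on the plus strand.
Selp: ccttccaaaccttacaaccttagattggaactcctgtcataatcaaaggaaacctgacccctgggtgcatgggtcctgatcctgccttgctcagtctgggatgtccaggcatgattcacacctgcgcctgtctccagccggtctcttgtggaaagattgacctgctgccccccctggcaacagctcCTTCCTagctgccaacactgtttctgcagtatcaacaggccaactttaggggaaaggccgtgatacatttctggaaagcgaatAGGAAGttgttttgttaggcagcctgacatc
Ly6c1 encodes a lipid-anchored surface protein of mouse endothelium, and the second start site of this gene has its window at chr15:75048614-75048913 on the minus strand.
Ly6c1, second start: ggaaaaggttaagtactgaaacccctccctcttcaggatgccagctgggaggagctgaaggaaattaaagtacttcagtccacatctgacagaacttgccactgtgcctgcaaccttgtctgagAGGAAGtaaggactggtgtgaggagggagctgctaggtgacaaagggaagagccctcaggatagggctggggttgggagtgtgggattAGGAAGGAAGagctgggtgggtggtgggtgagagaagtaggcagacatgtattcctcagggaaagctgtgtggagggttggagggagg

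The motif was found 1 time in the Stab2 window, 3 times in that of Clec4g, 2 times in that of Selp and 3 times in that of the second Ly6c1 start, counting matches that overlap. It was found 0 times in the windows of Fcgr2b and of the first Ly6c1 start. Of 32851 promoter windows of the same length, 35.4% held it, so its presence in sinusoidal and vascular windows alike is a description of these letters. No match to AGATAA (held by 11.2% of all windows and bound by GATA factors), GGGNTTTCC (1.7%, bound by NF-kB) or CACGTG (an E-box, 7.2%) was found on either strand in these 6 windows. Lyve1, Oit3, Vwf, Plvap and Vcam1 were not examined for sequence.

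The members are protein-coding genes on 7 chromosomes in GENCODE M21 (GRCm38). Among the sinusoidal genes, Stab2 (ENSMUSG00000035459) spans chr10:86841198-87008025, Clec4g (ENSMUSG00000074491) chr8:3707064-3720651, Lyve1 (ENSMUSG00000030787) chr7:110850607-110863239, Oit3 (ENSMUSG00000009654) chr10:59422958-59441778 and Fcgr2b (ENSMUSG00000026656) chr1:170958617-170976547. The vascular genes are Vwf (ENSMUSG00000001930) at chr6:125546774-125686679, Selp (ENSMUSG00000026580) at chr1:164115264-164150026, Ly6c1 (ENSMUSG00000079018) at chr15:75044018-75048830, Plvap (ENSMUSG00000034845) at chr8:71497765-71511752 and Vcam1 (ENSMUSG00000027962) at chr3:116109949-116129688. Reads were counted over exons. Of the 50-base windows of the Ly6c1 transcripts, 32.8% also occur in another gene (Ly6c2, Ly6a or Ly6i), so the counts of Ly6c1 are uncertain where reads could be shared. The share was 4.4% for Fcgr2b, whose relative is Fcgr3, and at most 0.5% for the other 8 genes.

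Gene totals ranged from 19639839 to 52395073 counts per library in the first experiment and from 18628257 to 25462106 in the second. Counts per library were lowest for Ly6c1 (6 to 115) and Selp (8 to 61 in the second experiment, 26 to 138 in the first) and highest for Plvap (397 to 2189 and 662 to 3587). The hepatocyte gene Alb stood between 42100 and 82400 CPM (counts scaled to a common library size with TMM normalization) in every library. All 18 genes of a pan-endothelial list were measured in both experiments. Bcl2 itself was at 4.17 to 8.44 CPM in Chow Bcl2TG and 7.75 to 11.3 CPM in Chow WT livers, and at 8.98 to 14.9 CPM in HFD Bcl2TG and 2.72 to 21.3 CPM in HFD WT livers, where replicate 1 had the highest value. Liver Bcl2 therefore does not separate the labelled genotypes. S100a8 was not among the genes measured in the second experiment, so no value checks its deletion. HFD Bcl2TG replicate 6 stood apart from its group in Oit3, Fcgr2b and Vcam1, so values that rest on it are also given without it.

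Levels of different genes can be compared only per length, and per kilobase of exon the leading genes were the same in all 8 groups. Plvap, which forms the diaphragms of endothelial pores, was highest, at 17.6 ± 0.997 CPM per kb in Chow WT (SD, n = 3) and 42.8 ± 11.2 in HFD WT livers (SD, n = 5). Clec4g followed at 13.5 ± 3.84 CPM per kb in Chow WT livers. Fcgr2b (6.16 ± 0.135), Oit3 (6.06 ± 0.638) and Stab2 (4.0 ± 0.308) came next, and Fcgr2b and Oit3 did not differ beyond their spread. Lyve1 (2.14 ± 0.586), Vcam1 (0.696 ± 0.12), Vwf (0.426 ± 0.0381) and Selp (0.323 ± 0.0441) were lowest. In the second experiment Ly6c1 ranked with Vwf in 3 groups, at 0.467 to 0.521 CPM per kb, and stood at 2.6 ± 0.205 CPM per kb (SD, n = 4) in HFD S100a8f/fCx3cr1Cre livers.

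**Figure D1:**
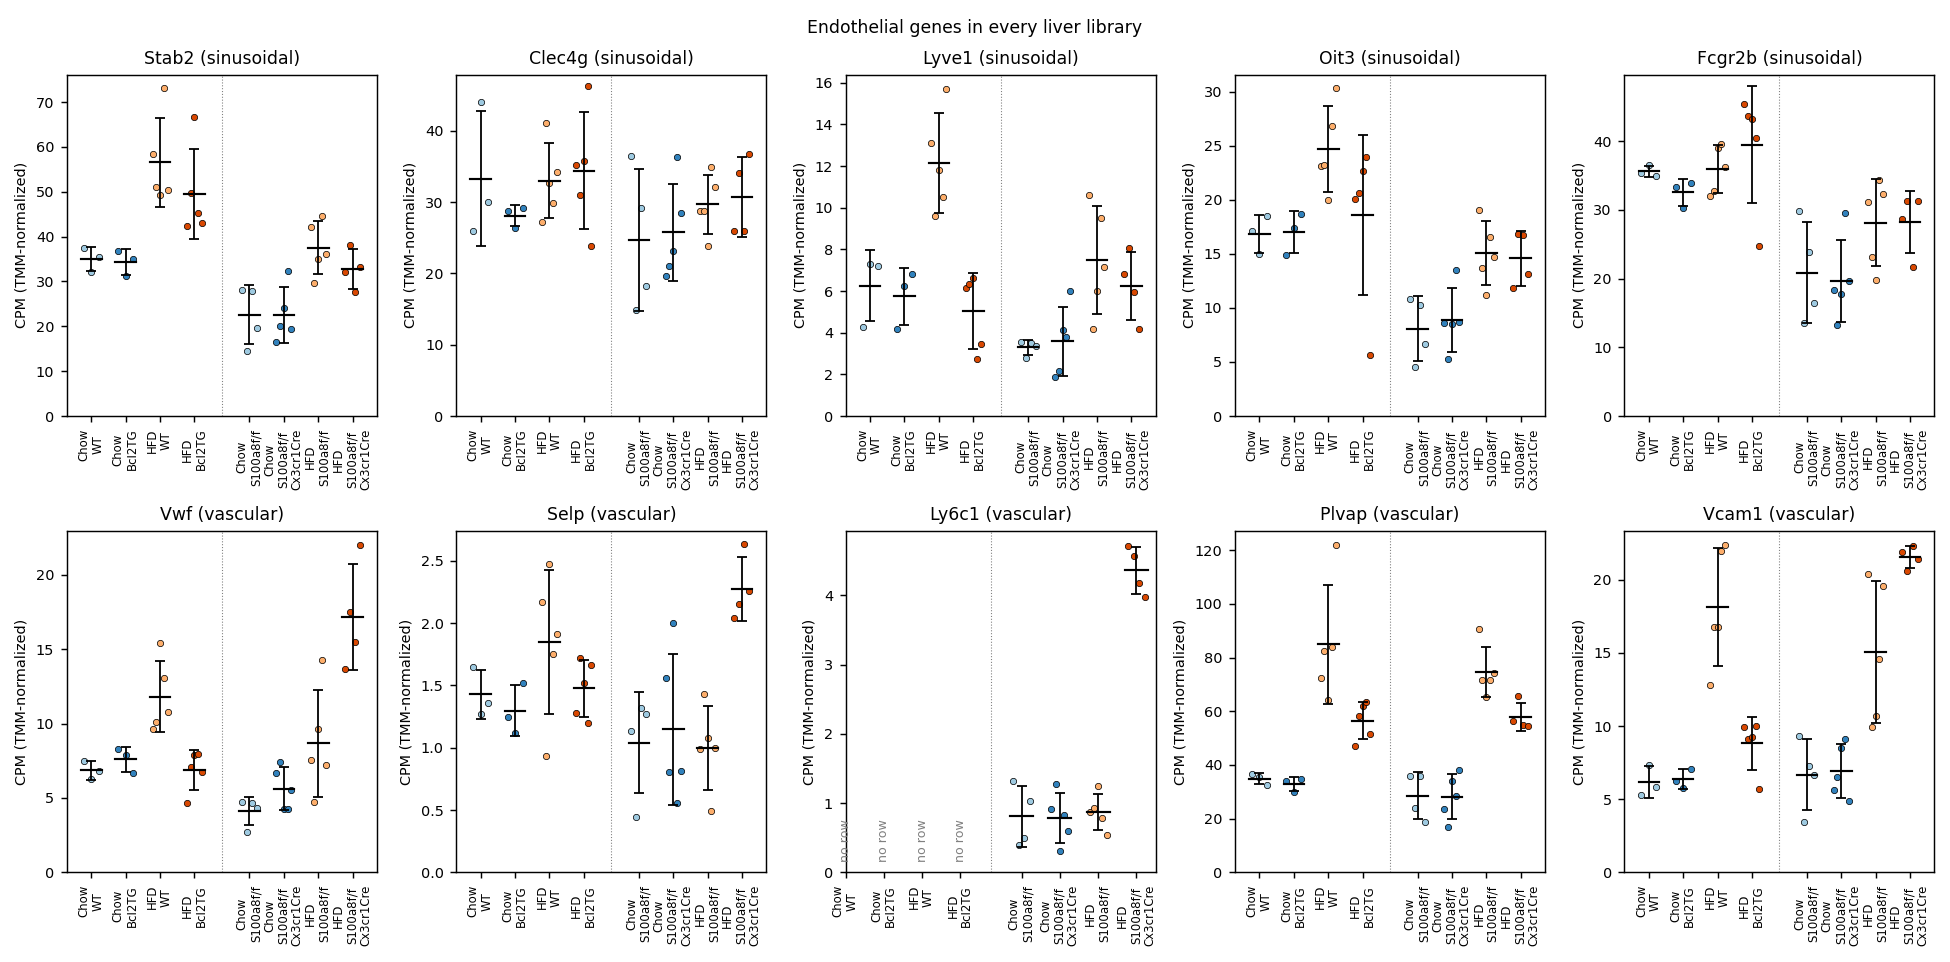
Levels of the 10 genes in every liver library, in CPM on linear axes starting at 0, with the sinusoidal genes in the upper panels and the vascular genes in the lower ones. Points are libraries, lines are group means and bars are SD, and the dotted line parts the experiments. Vcam1 stands at 12.8 to 22.4 CPM in HFD WT and 5.7 to 10.0 CPM in HFD Bcl2TG livers, and Ly6c1 at 3.97 to 4.71 CPM in HFD S100a8f/fCx3cr1Cre livers.

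The first comparison asked whether keeping adipocytes alive on HFD went with a different endothelial profile in the liver. Of the 9 measured genes, 4 were lower in HFD Bcl2TG than in HFD WT livers and 0 were higher, with edgeR at an adjusted p under 0.05. Across all 14436 genes, 4.29% were lower. They were 3 of the 4 vascular genes (Vcam1, Vwf and Plvap) and 1 of the 5 sinusoidal genes (Lyve1). For the same 4 genes every HFD Bcl2TG library was below every HFD WT library, as it was for 4.53% of all genes. Without HFD Bcl2TG replicate 6 the 4 calls held (adjusted p = 0.00372 for Vcam1, 0.0138 for Lyve1, 0.016 for Vwf and 0.0428 for Plvap). They also held without HFD WT replicate 1, the library with the high Bcl2 value.

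Lyve1, the hyaluronan receptor of sinusoids and lymphatic vessels, was at 13.1, 9.62, 11.8, 10.5 and 15.7 CPM in HFD WT livers. In HFD Bcl2TG livers it was at 6.14, 6.32, 6.64, 2.73 and 3.45 CPM. The lowest HFD WT library was above the highest HFD Bcl2TG library, and the log2 fold change was -1.25 (SE 0.243, adjusted p = 0.00645). The other sinusoidal genes overlapped between the genotypes. Stab2 was at 49.3 to 73.2 CPM in HFD WT and 42.4 to 66.6 CPM in HFD Bcl2TG livers (log2 fold change -0.19, SE 0.136, adjusted p = 0.44). Oit3 was at 20 to 30.3 and 5.66 to 24.0 CPM (-0.40, SE 0.256, adjusted p = 0.385), and without HFD Bcl2TG replicate 6 the value was -0.18 (SE 0.125, adjusted p = 0.486). Clec4g (0.06, SE 0.169) and Fcgr2b (0.14, SE 0.134), the inhibitory Fc receptor that sinusoids use to take up immune complexes, had values above 0. Without replicate 6 they were 0.16 (adjusted p = 0.671) and 0.26 (adjusted p = 0.115).

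Vcam1, the adhesion molecule that α4 integrins on leukocytes bind, had the smallest adjusted p. It was at 12.8, 16.8, 16.8, 22 and 22.4 CPM in HFD WT livers and at 9.97, 9.13, 9.26, 10.0 and 5.7 CPM in HFD Bcl2TG livers. All 5 HFD WT libraries were higher, with a log2 fold change of -1.04 (SE 0.174, adjusted p = 0.00266). Vwf, which captures platelets at the vessel wall, was at 9.66, 10.1, 15.4, 13.1 and 10.8 CPM in HFD WT and at 4.63, 7.07, 7.9, 7.96 and 6.76 CPM in HFD Bcl2TG livers (-0.79, SE 0.162, adjusted p = 0.00888). Plvap was at 72.3, 82.3, 64.3, 84.1 and 122 CPM in HFD WT livers. In HFD Bcl2TG livers it was at 47.2, 58.4, 61.9, 63.4 and 51.7 CPM (-0.59, SE 0.145, adjusted p = 0.022), so the groups were separated by a gap of less than 1 CPM. The call of Plvap ended without HFD WT replicate 5, the highest library (adjusted p = 0.0505), and without HFD Bcl2TG replicate 1, the lowest (adjusted p = 0.0577). With a clock gene score as a covariate (-1.39 to -1.09 in HFD WT and -3.1 to -1.1 in HFD Bcl2TG livers), the calls of Vwf (-0.69, adjusted p = 0.104) and Plvap (-0.56, adjusted p = 0.149) ended and those of Vcam1 (adjusted p = 0.0311) and Lyve1 (adjusted p = 0.0292) held. Selp, which lets leukocytes roll and is also stored in platelets, overlapped at 0.932 to 2.47 and 1.2 to 1.72 CPM (-0.33, SE 0.235, adjusted p = 0.445).

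Markers of other cell types differed between the same livers. Of 5 portal fibroblast markers measured, 3 were lower in HFD Bcl2TG livers (Col3a1 -1.87, Col1a1 -2.58 and Dpt -1.0 on the log2 scale), and their summed level was 150 to 219 CPM in HFD WT and 29.1 to 64.6 CPM in HFD Bcl2TG livers. Of 8 monocyte and recruited macrophage markers, 4 were lower, Gpnmb by the most (-3.93, at 1.63 to 8.93 against 0.16 to 0.5 CPM), with summed levels of 68.9 to 118 and 39.6 to 104 CPM. Markers of Kupffer cells, which also make Vcam1, gave 0 calls of 9 and summed to 239 to 434 and 194 to 495 CPM. The part of these fibroblast and macrophage markers in the Vcam1, Vwf, Plvap and Lyve1 differences was not tested. With the mean of smooth muscle, mesothelial and adipocyte markers as a covariate, Vcam1 (-1.12, adjusted p = 0.0136), Vwf (-0.92, adjusted p = 0.0249) and Plvap (-0.75, adjusted p = 0.0246) stayed lower, and the call of Lyve1 ended (-0.94, adjusted p = 0.0537). Of its markers, 0 of 3 smooth muscle, 0 of 4 mesothelial and 0 of 1 adipocyte markers were called between these groups. It holds no fibroblast or macrophage marker, so it does not adjust for those cells.

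Other genes of the same vessels and pathways gave few calls. Of 18 pan-endothelial genes, 1 was lower (Tie1, an endothelial receptor kinase, -0.38, SE 0.112, adjusted p = 0.0486) and 0 were higher, with a median log2 fold change of -0.23 against 0.01 for all genes. Of 18 other vascular genes, 1 was lower (Mcam, -0.69, SE 0.175, adjusted p = 0.0262). Among 19 other sinusoidal genes 0 were called and their median was -0.14. Of 11 leukocyte adhesion partners, 1 was lower, Icam1, the ligand of the β2 integrins, at 10.0 to 15.4 CPM in HFD WT and 5.52 to 9.15 CPM in HFD Bcl2TG livers (-0.86, SE 0.203, adjusted p = 0.018). Itga4, the α4 integrin chain that binds VCAM1, was at 4.21 to 7.76 and 3.99 to 5.93 CPM (-0.07, adjusted p = 0.876).

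On chow no member passed the test between the genotypes. With edgeR, 0 of the 9 genes differed between Chow Bcl2TG and Chow WT livers, 0 of them at an unadjusted p under 0.05 as well, and 0.152% of all genes were called in either direction (22 genes, with 1068 at an unadjusted p under 0.05). DESeq2 called 110 genes and limma-voom 203, with 0 of the 9 in either. Log2 fold changes lay between -0.24 (Clec4g, SE 0.219) and 0.15 (Vwf, SE 0.213). Vcam1 was at 5.31, 7.36 and 5.86 CPM in Chow WT and at 6.23, 5.79 and 7.09 CPM in Chow Bcl2TG livers, ranges that overlap. Only Fcgr2b did not overlap, at 35.0 to 36.5 CPM in Chow WT and 30.3 to 33.9 CPM in Chow Bcl2TG livers (-0.13, adjusted p = 0.848). Of all 14436 genes, 994 were lower without overlap.

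The diet comparison in WT mice asked how HFD itself altered the lining, and it shares the HFD WT libraries with the genotype comparison above. Of the 9 genes, 5 were higher in HFD WT than in Chow WT livers and 0 were lower, where 8.4% of all genes were higher. Vcam1 rose from 5.31 to 7.36 CPM on chow to the HFD WT values above (log2 fold change 1.55, SE 0.214, adjusted p = 0.000211), and Plvap rose from 36.5, 35.6 and 32.7 CPM (1.28, SE 0.175, adjusted p = 0.000203). Vwf was at 7.47, 6.25 and 6.83 CPM on chow (0.79, SE 0.193, adjusted p = 0.0113), and with the replicate number as a block its call ended (0.70, adjusted p = 0.051). Stab2 was at 37.5, 32.2 and 35.5 CPM on chow and at 58.5, 51.1, 49.3, 73.2 and 50.5 CPM on HFD (0.69, SE 0.162, adjusted p = 0.00875), and Lyve1 at 4.28, 7.28 and 7.21 CPM on chow (0.96, SE 0.288, adjusted p = 0.0316). The chow and HFD ranges did not overlap for 6 of the 9 genes, the 5 called ones and Oit3. The same held, higher on HFD, for 1636 of all 14436 genes. The call of Lyve1 ended without HFD WT replicate 1 (adjusted p = 0.0542), HFD WT replicate 5 (0.0651) or Chow WT replicate 1 (0.123).

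The 4 other genes did not pass the test in WT mice. Oit3 had a log2 fold change of 0.55 (adjusted p = 0.237), Selp of 0.38, Fcgr2b of 0.01 and Clec4g of -0.01. Oit3 stood at 15 to 18.5 CPM on chow and 20 to 30.3 CPM on HFD, without overlap. Markers of other liver cells also rose with diet in these mice, 6 of 9 Kupffer cell markers (sums of 156 to 168 CPM on chow and 239 to 434 CPM on HFD) 3 of 8 stellate cell markers (267 to 372 and 395 to 527 CPM), 6 of 8 monocyte and recruited macrophage markers (36.1 to 40.4 and 68.9 to 118 CPM) and 2 of 5 portal fibroblast markers (39.2 to 43.6 and 150 to 219 CPM). Their part in the differences of the members was not tested. A clock score, the mean log2 CPM of genes in the Bmal1 phase minus that of genes in the Nr1d1 phase, was 1.73 to 2.38 in Chow WT and -1.39 to -1.09 in HFD WT livers. Diet and clock score cannot be told apart in these libraries, and with the score as a covariate 0 of the 9 genes and 0 of all genes were called.

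In Bcl2TG mice, 1 of the 9 genes was higher on HFD than on chow, Plvap, where 1.32% of all genes were higher. It stood at 34.1, 29.9 and 34.8 CPM on chow and at the 47.2 to 63.4 CPM given above on HFD (log2 fold change 0.78, SE 0.172, adjusted p = 0.0209). The groups did not overlap for Plvap or for Stab2, where 1095 of all 14436 genes were higher without overlap. The call of Plvap ended without HFD Bcl2TG replicate 3 (adjusted p = 0.0537) or without any of the Chow Bcl2TG libraries (0.0704 to 0.137). Stab2 (0.53, adjusted p = 0.101) and Vcam1 (0.47, adjusted p = 0.277) had values above 0 without passing, and Lyve1 (-0.17) and Vwf (-0.15) had values below 0.

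The difference between those diet responses was tested as an interaction. With edgeR, 0 of the 9 genes passed, and 0.485% of all genes passed in either direction. An unadjusted p under 0.05 was found for 4 of the 9 genes and for 2145 of all 14436 genes. Vcam1 had an interaction of -1.08 on the log2 scale (SE 0.29, adjusted p = 0.105), Vwf of -0.94 (SE 0.267, adjusted p = 0.126), Lyve1 of -1.13 (SE 0.4, adjusted p = 0.216) and Plvap of -0.50 (SE 0.237, adjusted p = 0.336). DESeq2 called Vcam1 (adjusted p = 0.0291) and Vwf (0.0427), and limma-voom called Vcam1 (0.0397).

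**Figure D2:**
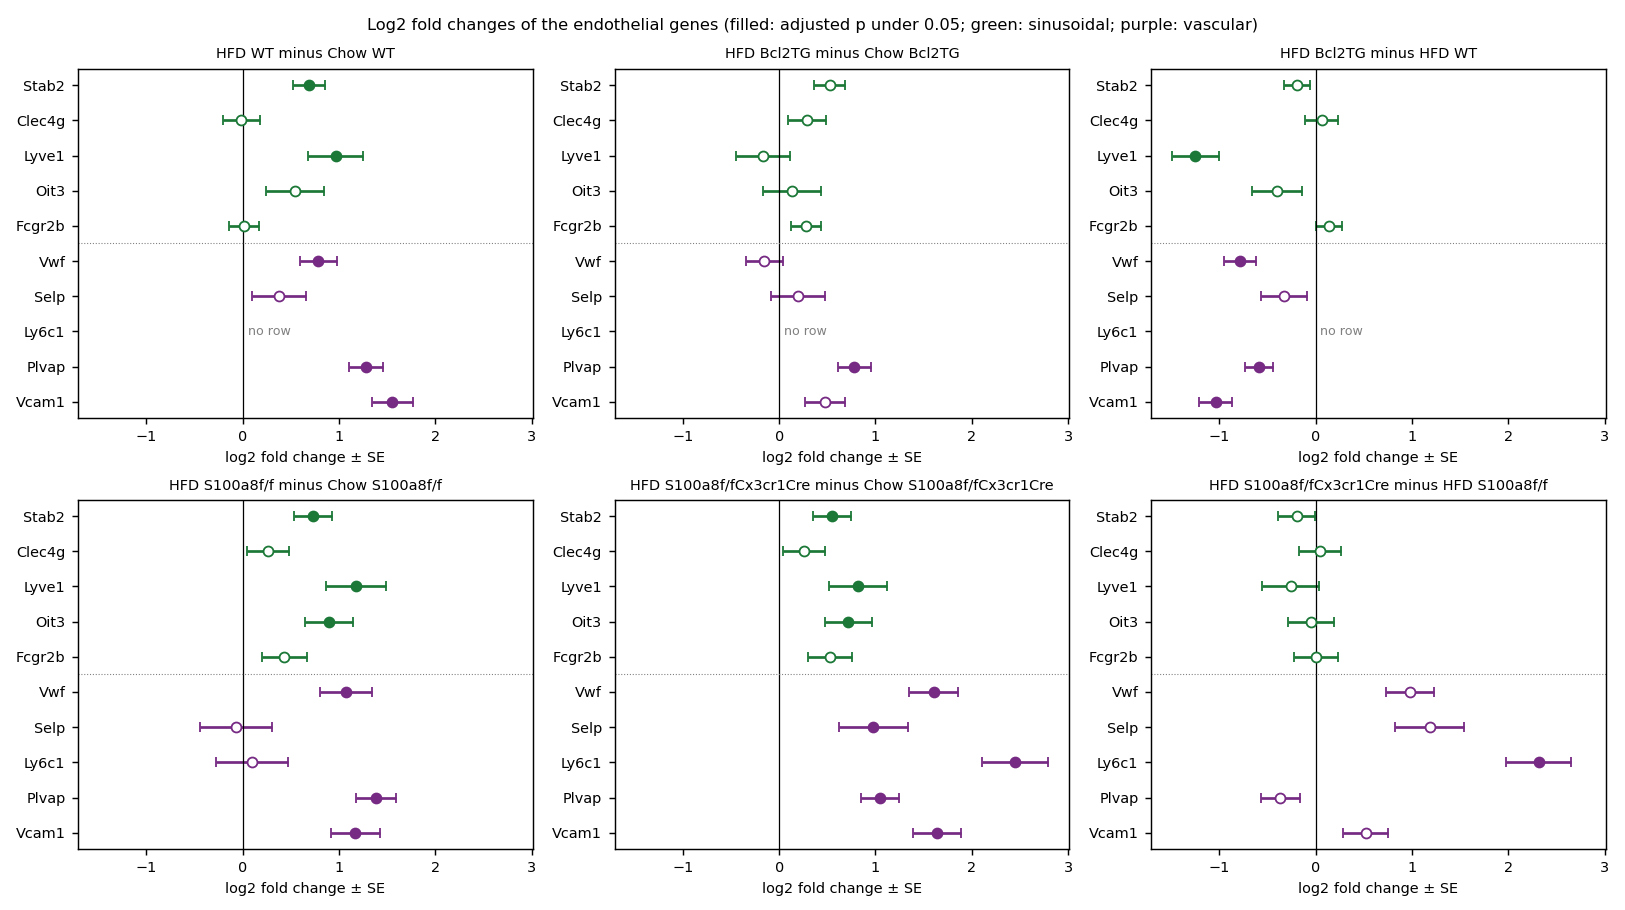
Log2 fold changes of the 10 genes with their SE, for diet in the control genotype, diet in the modified genotype and genotype on HFD, in the first experiment (upper panels) and the second (lower panels). Filled points passed an adjusted p under 0.05 with edgeR, green marks sinusoidal and purple vascular genes. Vcam1, Vwf, Plvap and Lyve1 are filled and below 0 in HFD Bcl2TG minus HFD WT, and Ly6c1 at 2.31 is the filled point in HFD S100a8f/fCx3cr1Cre minus HFD S100a8f/f.

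The second experiment asked whether S100a8 in macrophages bears on the liver on HFD. Here 1 of the 10 genes was higher in HFD S100a8f/fCx3cr1Cre than in HFD S100a8f/f livers and 0 were lower, where 0.854% of all genes were higher. The gene was Ly6c1, at 0.869, 0.923, 1.25, 0.781 and 0.543 CPM in HFD S100a8f/f livers and at 4.71, 4.57, 4.18 and 3.97 CPM in HFD S100a8f/fCx3cr1Cre livers. Every Cre library was more than 3 times above the highest control, with a log2 fold change of 2.31 (SE 0.338, adjusted p = 0.000881), and the call held without each library in turn (adjusted p at most 0.00413). The chow groups of either genotype, at 0.307 to 1.32 CPM, overlapped with HFD S100a8f/f.

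The 4 other vascular genes went different ways. Selp was at 0.993, 1.43, 1.08, 0.493 and 1.0 CPM in HFD S100a8f/f and at 2.04, 2.15, 2.63 and 2.26 CPM in HFD S100a8f/fCx3cr1Cre livers (log2 fold change 1.18, SE 0.357, adjusted p = 0.216). Vcam1 was at 20.4, 9.93, 10.7, 14.6 and 19.6 CPM in HFD S100a8f/f livers and at 21.9, 20.6, 22.3 and 21.4 CPM in HFD S100a8f/fCx3cr1Cre livers (0.52, SE 0.238, adjusted p = 0.61). These genes did not overlap between the groups and yet missed the test. Vwf was at 7.53, 4.71, 9.64, 14.3 and 7.23 CPM and at 13.7, 17.5, 15.5 and 22 CPM (0.98, SE 0.248, adjusted p = 0.0815), with HFD S100a8f/f replicate 4 inside the range of the Cre group. Without that library Vwf passed (1.24, adjusted p = 0.00794). Plvap had its values the other way, at 65.3 to 90.5 CPM in HFD S100a8f/f and 54.5 to 65.8 CPM in HFD S100a8f/fCx3cr1Cre livers (-0.37, SE 0.201, adjusted p = 0.736). Ly6c1, Selp and Vcam1 were the 3 of 10 genes higher without overlap, against 2.74% of all genes, and 0 of 10 were lower without overlap, against 1.71%.

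None of the 5 sinusoidal genes passed between these genotypes. Log2 fold changes were -0.26 for Lyve1 (SE 0.294), -0.20 for Stab2 (SE 0.192), -0.04 for Oit3 (SE 0.239), 0.00 for Fcgr2b (SE 0.228) and 0.05 for Clec4g (SE 0.218), with adjusted p of at least 0.921. Stab2 was at 42.2, 29.7, 35.1, 44.5 and 36.2 CPM in HFD S100a8f/f and at 32.0, 38.2, 27.6 and 33.3 CPM in HFD S100a8f/fCx3cr1Cre livers. The ranges overlapped for all 5.

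Further endothelial genes were counted list by list. Of 18 other vascular genes, 2 were higher, Cav1, the coat protein of caveolae, at 3.09 to 6.94 against 11.7 to 16.3 CPM (1.80, SE 0.271, adjusted p = 0.0011), and Cd34, at 1.46 to 2.88 against 6.55 to 10.7 CPM (1.83, SE 0.291, adjusted p = 0.0017). Their median log2 fold change was 0.43 against 0.00 for all genes, with 15 of 18 above 0. Of 18 pan-endothelial genes, 1 was higher, Pecam1, a junction protein of endothelial cells and platelets (0.71, SE 0.167, adjusted p = 0.0486). Of 19 other sinusoidal genes 0 were called, with a median of -0.07, and Bmp6, a sinusoidal signal for iron control, had the smallest p (0.77, adjusted p = 0.139). Of 11 leukocyte adhesion partners 0 were called. Ly6a, a relative that shares sequence with Ly6c1, was at 4.02 to 9.66 CPM in HFD S100a8f/f and 11.8 to 15.8 CPM in HFD S100a8f/fCx3cr1Cre livers (0.91, SE 0.243, adjusted p = 0.111), a smaller difference than that of Ly6c1. The part of reads shared with Ly6c2, Ly6a or Ly6i in the Ly6c1 difference was not tested. Platelet markers Pf4 (0.85) and Itga2b (0.46) were not called.

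The HFD S100a8f/fCx3cr1Cre livers also held more RNA of smooth muscle, adipocyte and portal fibroblast markers. Of 4 smooth muscle markers, 3 were higher (Cnn1 3.56, Myh11 2.97 and Acta2 2.89 on the log2 scale), and the list summed to 13.2 to 41.3 CPM in HFD S100a8f/f and 150 to 176 CPM in HFD S100a8f/fCx3cr1Cre livers. Of 3 adipocyte markers, 2 were higher (Adipoq 2.67 and Plin1 2.42), at sums of 7.39 to 29.8 and 70.2 to 149 CPM. Portal fibroblast markers gave 4 of 7 higher, Pi16 by the most (3.37), with sums of 111 to 264 and 227 to 288 CPM. Of 7 monocyte and recruited macrophage markers, 1 was higher, Gpnmb (2.20), with sums of 70.0 to 131 and 171 to 205 CPM. Kupffer cell markers gave 0 calls of 9, at 283 to 488 and 261 to 391 CPM. No marker list was at 0 in either group. With the mean of smooth muscle, mesothelial and adipocyte markers as a covariate (1.18 to 1.68 in HFD S100a8f/f and 2.85 to 3.44 in HFD S100a8f/fCx3cr1Cre livers, no overlap), Ly6c1 had a log2 fold change of 2.72 with a larger SE of 0.869 (adjusted p = 0.391), and 0 genes of 13817 were called. These markers and the genotype on HFD cannot be told apart in these 9 libraries. Which cells made the Ly6c1, Cd34 and Cav1 RNA of these livers was not measured.

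**Figure D3:**
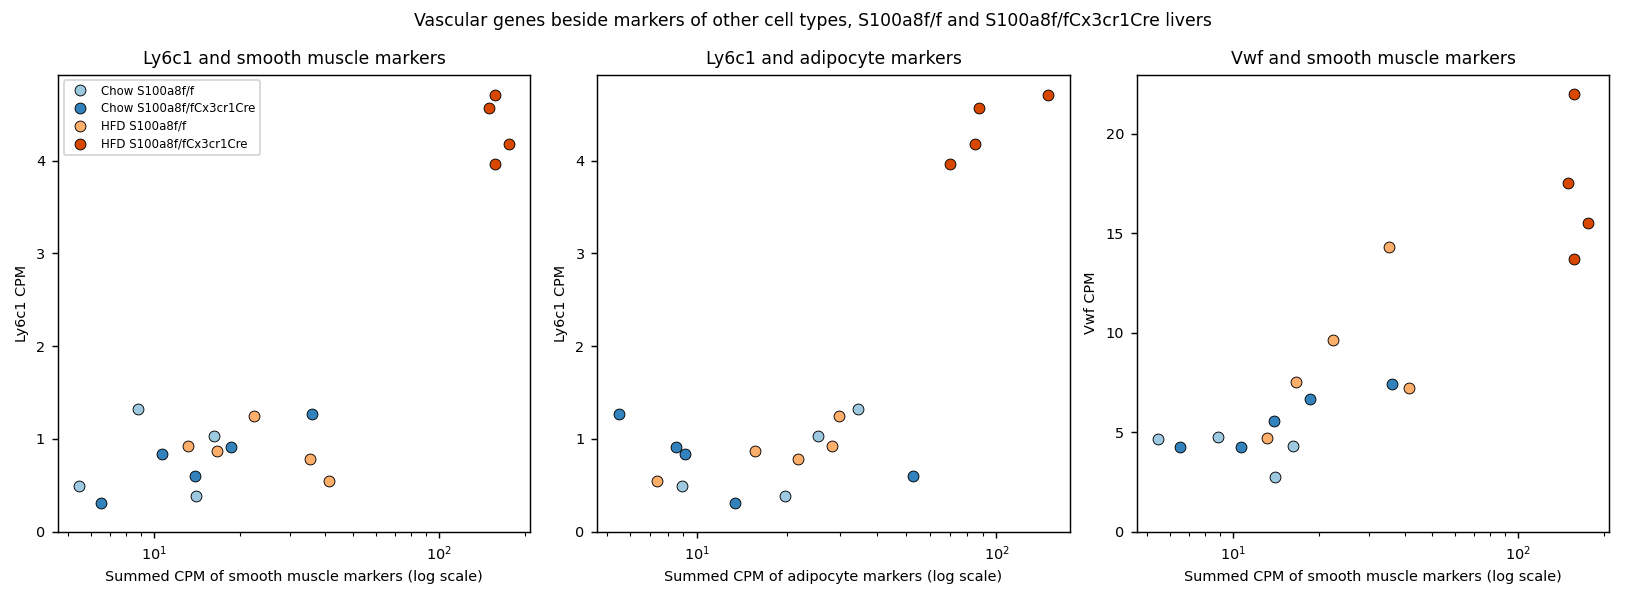
Ly6c1 (left and middle) and Vwf (right) in CPM on linear axes, against the summed CPM of smooth muscle or adipocyte markers on log axes, 1 point for each library of the second experiment, coloured by group. The 4 HFD S100a8f/fCx3cr1Cre libraries stand apart on both axes, at 150 to 176 CPM of smooth muscle markers and 3.97 to 4.71 CPM of Ly6c1, while Vwf at 14.3 CPM in HFD S100a8f/f replicate 4 falls within their range.

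On chow, edgeR called 0 of the 10 genes between S100a8f/fCx3cr1Cre and S100a8f/f livers, where 0% of all 13817 genes were called and 775 had an unadjusted p under 0.05. DESeq2 called 5 genes of all and limma-voom 0, none of them a member. The largest value was that of Vwf, at 4.76, 2.72, 4.64 and 4.32 CPM in Chow S100a8f/f and 6.67, 7.43, 4.25, 4.23 and 5.54 CPM in Chow S100a8f/fCx3cr1Cre livers (log2 fold change 0.45, SE 0.271, adjusted p = 0.97).

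HFD raised most of the members in both genotypes of this experiment. In S100a8f/f livers 6 of the 10 genes were higher on HFD, where 14.5% of all genes were higher. Plvap rose from 36.0, 23.9, 36.0 and 18.6 CPM to 90.5, 71.8, 65.3, 71.7 and 74.2 CPM (1.38, adjusted p = 9.04e-05), Vcam1 by 1.17 (adjusted p = 0.00238), Vwf by 1.08 (0.00622) and Lyve1 by 1.18 on the log2 scale (0.00866). Stab2 rose from 28.0, 14.6, 27.9 and 19.7 CPM to the HFD values above (0.73, adjusted p = 0.00947), and Oit3 from 4.55 to 10.8 CPM to 11.2 to 19.1 CPM (0.90, adjusted p = 0.0119). Fcgr2b (0.43, adjusted p = 0.173), Clec4g (0.26), Ly6c1 (0.10) and Selp (-0.07) did not pass. Chow S100a8f/f replicate 2 was the lowest library of its group for 9 of the 10 genes, all but Plvap, and the 6 calls held without each library in turn. All 8 stellate cell markers were higher as well (sums of 99.4 to 260 CPM on chow and 349 to 518 CPM on HFD), as were 2 of 9 Kupffer cell markers, 5 of 7 monocyte and recruited macrophage markers and 4 of 7 portal fibroblast markers, and their part was not tested.

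In S100a8f/fCx3cr1Cre livers 8 of the 10 genes were higher on HFD, where 16.1% of all genes were higher. All 5 vascular genes passed, Ly6c1 from 0.307 to 1.27 CPM on chow (2.45, adjusted p = 3.7e-05), Vcam1 by 1.64 (7.07e-05), Vwf by 1.60 (0.000124), Plvap by 1.05 (0.000738) and Selp by 0.98 on the log2 scale (0.0453). Of the sinusoidal genes 3 passed, Oit3 by 0.72 (0.0318), Stab2 by 0.55 (0.0386) and Lyve1 by 0.82 (0.0483), and Fcgr2b (0.53, adjusted p = 0.0908) and Clec4g (0.26) did not. With 1 library left out at a time, among 18 of either genotype and diet, Stab2 kept its call in 11, Oit3 in 12, Selp in 8 and Lyve1 in 4, and Ly6c1, Vcam1, Vwf and Plvap kept theirs in all 18. Markers of other cells rose in the same livers, all 8 of the stellate, 4 of 4 smooth muscle, 3 of 3 adipocyte, 6 of 7 portal fibroblast, 7 of 9 Kupffer cell and 6 of 7 monocyte and recruited macrophage markers. The smooth muscle markers summed to 6.5 to 36.0 CPM on chow and 150 to 176 CPM on HFD, and the portal fibroblast markers to 21.2 to 45.7 and 227 to 288 CPM. With the same marker covariate, 2 of the 10 genes were called (Vcam1 and Stab2), and the calls over all 13817 genes went from 3993 to 215.

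The interaction of diet with the Cre was called by edgeR for 0 of the 10 genes and for 0.13% of all genes. An unadjusted p under 0.05 was found for 1 of the 10 genes and for 879 of all 13817 genes. Ly6c1 had the largest value, 2.35 on the log2 scale (SE 0.507, adjusted p = 0.0771), and DESeq2 called it (0.0016) where limma-voom called 0. Selp followed at 1.05 (adjusted p = 0.809).

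Other endothelial and adhesion genes were also counted on HFD against chow. Of all genes, 14.5% were higher on HFD in S100a8f/f, 16.1% in S100a8f/fCx3cr1Cre, 8.4% in WT and 1.32% in Bcl2TG livers. In S100a8f/f livers 11 of 18 pan-endothelial genes were higher (Pecam1 0.86, Cdh5 0.92, Sox18 1.07), as were 8 of 19 other sinusoidal genes (Flt4 0.95, Fgd5 0.96, Stab1 0.55) and 6 of 18 other vascular genes (Mcam 1.48, Esm1 1.86, Thbd 1.40). In S100a8f/fCx3cr1Cre livers the other vascular genes gave 14 of 18 (Mcam 1.81, Cd34 2.23, Gja5 2.31), the other sinusoidal genes 6 of 19 and the pan-endothelial genes 11 of 18. In WT livers 0 of 18 pan-endothelial genes passed, although all 18 had values above 0, and 1 of 19 other sinusoidal genes was higher (Ptgs1 0.82). Cav1 was lower on HFD in WT (-1.22) and Bcl2TG livers (-1.72). Leukocyte adhesion partners were higher for 7 of 11 genes in WT livers, among them Jam2 (1.02), Selplg, the ligand of P-selectin (1.02), and Itgb2 (1.53), for 6 of 11 in S100a8f/f and 7 of 11 in S100a8f/fCx3cr1Cre livers, and for 0 of 11 in Bcl2TG livers. In Bcl2TG livers 8 of these 11 genes had values above 0, with a median of 0.38.

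Angiogenic ligands and receptors moved in mixed directions. In HFD Bcl2TG against HFD WT livers 1 of 13 was called, Vegfa, the main endothelial growth factor, which was higher (0.55, adjusted p = 0.0111). In WT livers on HFD 2 of 13 were lower, Vegfa (-0.49) and its co-receptor Nrp1 (-0.52). In S100a8f/f livers on HFD 6 of 12 were higher, among them Angpt2 (2.25) and Apold1 (1.63), and 2 were lower, among them Nrp1 (-0.77). In S100a8f/fCx3cr1Cre livers on HFD 7 of 12 were higher and 2 were lower. Of all 14436 genes, 349 were higher in HFD Bcl2TG than in HFD WT livers and 1007 were lower on HFD in WT livers. Of all 13817 genes, 2004 were higher and 1794 lower on HFD in S100a8f/f livers, and 2229 and 1764 in S100a8f/fCx3cr1Cre livers.

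The balance of the classes was described as the mean log2 CPM of the sinusoidal genes minus that of the vascular genes in each library, with no test. It was 1.62 ± 0.17 in Chow WT (SD, n = 3), 1.54 ± 0.10 in Chow Bcl2TG (SD, n = 3), 1.10 ± 0.16 in HFD WT (SD, n = 5) and 1.38 ± 0.33 in HFD Bcl2TG livers (SD, n = 5). HFD WT libraries lay at 0.92 to 1.33, below all Chow WT libraries, and overlapped with HFD Bcl2TG libraries at 0.85 to 1.72. The lowest of these was replicate 6, the next was at 1.32, and without replicate 6 the difference between the genotypes went from 0.28 to 0.41. With the other sinusoidal and other vascular genes in place of the members, the difference of HFD WT from Chow WT turned from -0.52 to 0.09, so the direction held for these 9 genes and not for the wider lists. In the second experiment the vascular mean also held Ly6c1, 5 genes against 4, so its balances are not comparable with those of the first. The balance in the second experiment was 1.75 ± 0.19 in Chow S100a8f/f (SD, n = 4), 1.67 ± 0.46 in Chow S100a8f/fCx3cr1Cre (SD, n = 5), 1.71 ± 0.26 in HFD S100a8f/f (SD, n = 5) and 0.70 ± 0.14 in HFD S100a8f/fCx3cr1Cre livers (SD, n = 4). The last group, at 0.57 to 0.90, lay below all others of this experiment. Its difference from HFD S100a8f/f was -1.01, -0.69 without Ly6c1 and -0.59 with the other genes. The sinusoidal mean differed by less than its spread (4.33 ± 0.28 against 4.25 ± 0.16), and the vascular mean was 2.62 ± 0.11 in HFD S100a8f/f and 3.55 ± 0.05 in HFD S100a8f/fCx3cr1Cre livers, the groups in which the smooth muscle and adipocyte markers above also differed.

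**Figure D4:**
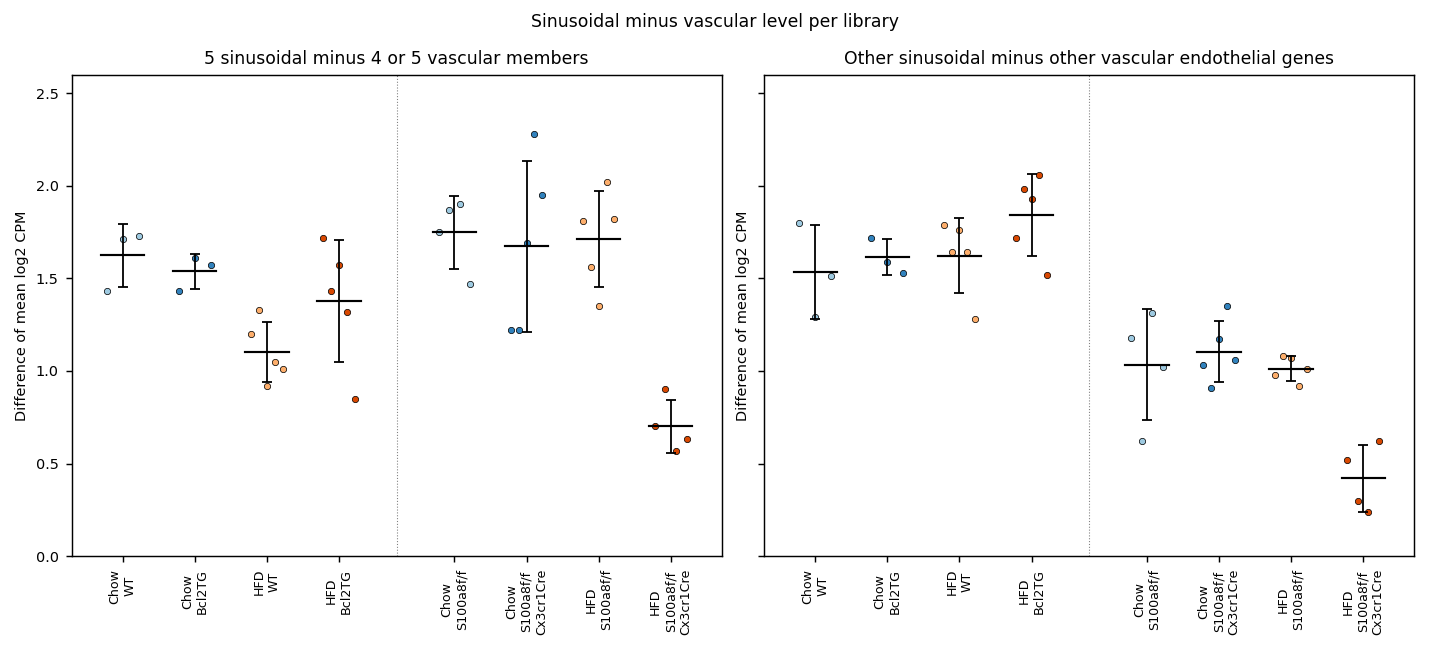
Mean log2 CPM of sinusoidal genes minus that of vascular genes in each library, for the members (left) and for the other sinusoidal and other vascular genes (right). On the left the vascular mean takes 4 genes in the first experiment and 5 in the second, so levels are not comparable between experiments. Points are libraries, lines are means and bars are SD, and the dotted line parts the experiments. HFD S100a8f/fCx3cr1Cre libraries lie at 0.57 to 0.90 on the left and at 0.24 to 0.62 on the right, and HFD WT libraries lie below Chow WT on the left but not on the right.

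Likeness of pattern was described by Pearson correlation of log2 CPM over all libraries of an experiment, which share diet and genotype groups. Over the 16 libraries of the first experiment Vcam1 was most like Psap (r = 0.96), Sparc (0.96) and Tgfbi (0.95), and Vwf most like Hsd17b4 (0.93), Chd1l (0.91) and Mipep (0.91). Stab2 was most like Rfk (0.92), Rhoq (0.9) and Acap2 (0.9). Over the 18 libraries of the second, Vcam1 was most like Pam (0.95), Hspg2 (0.95) and Cygb (0.94), Vwf like Lamb2 (0.94), Fbln1 (0.93) and Fhl1 (0.93), and Stab2 like Dock2 (0.94), Leprot (0.93) and Gatm (0.93). Ly6c1 was most like Lox (0.92), Trabd2b (0.89) and Ccn5 (0.88). No gene was among the 3 nearest of Vcam1, Vwf or Stab2 in both experiments.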

How the data were processed

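Whole-liver RNA was extracted with TRIzol and sequenced as polyA libraries, 1 library per mouse. Per the study's methods, reads were trimmed with Trimmomatic, aligned to GRCm38 with HISAT2 and counted with featureCounts. Tool versions, the annotation release and strand handling are not given in the sources used here. The authors deposited 1 table of raw gene counts for each experiment, without low genes (lowest mean counts 7.12 and 8.67). The tables also hold the authors' group means, fold changes, p-values and ranks, which were not used. Repeated genes were merged (14628 to 14436 and 14030 to 13817 rows) and no libraries were identical.

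Counts were fitted over the 4 groups of an experiment with edgeR 4.0.16 (R 4.3.3) by the quasi-likelihood test with TMM scaling, and p-values were adjusted by Benjamini-Hochberg over all genes. The low-count filter removed no gene, so an unfiltered fit could not differ. Genes were called at an adjusted p under 0.05. Levels are TMM-scaled CPM, and log2 CPM used a prior count of 2. DESeq2 1.42.0 and limma 3.58.1 (voom with quality weights), RLE scaling, a 1 CPM filter, only the groups compared, a replicate block, covariates and leaving out each library were alternatives. Levels were tabulated in pandas 2.3.3 with NumPy 2.4.6 and plotted in matplotlib 3.10.9, all under Python 3.11.15. On simulated counts a small random part of all genes was changed in the HFD group of the modified genotype only. No effect of diet was simulated, so the setting differs from the data. Of those changed by 1 on the log2 scale, edgeR recovered 76% for HFD Bcl2TG against HFD WT (14436 genes simulated). It recovered 71% for HFD S100a8f/fCx3cr1Cre against HFD S100a8f/f (13817 genes simulated). These shares were not split by count level, so they do not give the power for genes with few counts such as Ly6c1 and Selp. The labels do not say whether equal replicate numbers pair livers. The 3 same-numbered pairs of HFD WT and Chow WT livers had deviations correlated at r = 0.134, 0.136 and 0.15. Differently numbered pairs of these groups ranged from -0.377 to 0.427, so the values cannot tell whether the numbers pair livers. The replicate block is therefore given only as an alternative.

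The members and lists were chosen with earlier results of these data known. All members are named, with at most 3 called genes of each list per comparison, or 2 with the smallest p where none was called, and the 3 genes nearest in pattern to Stab2, Vwf, Ly6c1 and Vcam1. Itga4, which binds VCAM1, and Ly6a, which shares sequence with Ly6c1, were named outside this rule. Markers of other cell types are named where they moved with a member.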

Additional observations from a re-analysis of the deposited data

Results flagged for a closer look

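Of 58 groups of 4 or 5 libraries examined gene by gene, 3 held a library far from the others, where chance alone gives about 1 in 20 groups. All 3 were HFD Bcl2TG replicate 6. Oit3 was at 5.66 CPM in this library and at 20.1 to 24.0 CPM in the other 4. Fcgr2b was at 24.7 CPM, with the others at 40.5 to 45.4 CPM, and Vcam1 was at 5.7 CPM, with the others at 9.13 to 10.0 CPM. Stab2 at 43.1 CPM and Plvap at 51.7 CPM stood within their group. Without this library Vcam1 was still lower in HFD Bcl2TG than in HFD WT livers (log2 fold change -0.93, edgeR adjusted p = 0.00372).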

How the results depend on the processing

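No fold change of a member that was called turned in sign under any alternative. Vcam1 in HFD Bcl2TG against HFD WT livers was called in all 8 alternatives, DESeq2 and limma-voom among them, and without each of the 16 libraries. The 4 members lower in that comparison became 2 with the clock score as a covariate (Vcam1 and Lyve1), and 3 to 4 without 1 library. The 5 members higher in HFD WT livers on HFD became 0 with the clock score, and 4 to 6 without 1 library. The 1 member higher in Bcl2TG livers on HFD became 0 with the clock score, 2 with DESeq2 and 4 with limma-voom, and 0 to 1 without 1 library, while the calls over all genes went from 373 to 0, 784 and 1968. The interaction of diet and Bcl2TG went from 0 members to 2 with DESeq2 and 1 with limma-voom (70 genes in all, then 409 and 497). For HFD S100a8f/fCx3cr1Cre against HFD S100a8f/f livers, the 1 member became 0 with the covariate of smooth muscle, mesothelial and adipocyte markers, 2 with DESeq2 and 3 with limma-voom, and 1 to 2 without 1 library. The diet by Cre interaction went from 0 to 1 member with DESeq2 (18 genes in all, then 82). The 8 members higher on HFD in S100a8f/fCx3cr1Cre livers became 2 with that covariate (215 genes in all against 3993) and 4 with the clock score (2808), and 4 to 8 without 1 library. The causes were not tested. Over all genes, the 968 calls for HFD Bcl2TG against HFD WT became 1488 with DESeq2, 374 with the cell covariate and 255 with the clock score, and the 122 for HFD S100a8f/fCx3cr1Cre against HFD S100a8f/f became 184 with DESeq2 and 285 with limma-voom.

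Same-numbered libraries of different groups had r = -0.48 to 0.29 over 19 pairs of the first experiment and -0.36 to 0.19 over 24 of the second. Differently numbered libraries had r = -0.44 to 0.57 over 75 pairs and -0.39 to 0.4 over 97. With the replicate block, 2 members were called for HFD Bcl2TG against HFD WT (Vcam1 and Lyve1, 398 genes in all), 4 for HFD WT against Chow WT (all of the 5 but Vwf, 1996 genes) and 5 for HFD on S100a8f/fCx3cr1Cre livers (3488 genes). It changed no other count of members.

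The sinusoidal minus vascular difference, with other genes in place of the members, was 0.081 for Chow Bcl2TG against Chow WT, 0.091 for HFD WT against Chow WT, 0.23 for HFD Bcl2TG against Chow Bcl2TG and -0.59 for HFD S100a8f/fCx3cr1Cre against HFD S100a8f/f. Without Ly6c1, a choice made after seeing the data, the last was -0.69. Ly6c1 and Selp rest on as few as 6 and 8 counts in a library.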
